A study of Mus musculus with 4 samples.

Results

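The genes described here are the histone lysine methyltransferases, which write methyl marks, and the histone lysine demethylases, which erase them, in mouse oocytes matured with or without tubastatin A (TubA). They were taken by symbol as 41 genes, 25 writers and 16 erasers, of the 21957 genes in the table, and the rule that lists them uses no measured value, although earlier results of these data were known when they were chosen. TubA is an inhibitor designed against HDAC6, a deacetylase of tubulin and other cytoplasmic proteins. GV oocytes, which are arrested in meiotic prophase with an intact germinal vesicle, were taken at 0 h of culture. MII oocytes were cultured for 12 h without TubA and kept if they had extruded a polar body, and TubA-10 and TubA-20 oocytes were cultured for 12 h with TubA. All oocytes came from B6D2F1 hybrid females, a cross of C57BL/6 and DBA, aged 6 to 8 weeks. The titles of the treated samples give 10 and 20 μM of TubA, whereas their treatment fields read 20 μM (TubA-10) and 11 μM (TubA-20), so the groups are named here by their titles. The MII sample is titled as an embryo although the protocol is that of oocytes.

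Each condition was measured by RNA-seq in 1 library made from a pool of 100 oocytes, so no difference below has a replicate check and none is given a p-value. Treated oocytes were not required to have a polar body, and TubA is described as blocking meiosis before the second metaphase, so the effect of the compound and the stage reached cannot be told apart. In a pool, fewer oocytes holding a transcript and less of it per oocyte cannot be told apart either. RNA was selected by its poly(A) tail, so the number of transcripts and the length of their tails are not separated in these values. Values are FPKM, fragments scaled to transcript length and to all mapped fragments of the library, which can be compared between genes because they are per length, and which give a share of the library rather than a number of molecules. From the lowest values of the table, the libraries were estimated to hold about 14000000 (TubA-20) to 22000000 (TubA-10) fragments. The 12 oocyte marker genes were all present, with summed levels of 16833 to 22273 FPKM, led by *Dppa3*. The 15 cumulus and granulosa marker genes summed to 9.29 to 18.0 FPKM, with *Foxl2* at 0 in all 4 libraries. Of the 4 that reached 1 FPKM, *Inha* had 7.50 FPKM in GV and 0.239 to 0.314 after culture, while the other 3 were above GV in MII. *Cyp19a1* had 6.14 FPKM in GV and 8.60 in MII, *Tnfaip6* 0 and 0.338, and *Ptx3* 0 and 0.555, and at TubA-20 these 3 stood at 10.3, 1.57 and 1.19 FPKM. Their part in the results was not tested. The 10 blood and immune marker genes summed to 1.64 to 2.37 FPKM, with 4 of them at 0 throughout.

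Histone lysine methylation is read differently at each lysine. H3K4 methylation marks promoters and enhancers, and H3K36 and H3K79 methylation mark transcribed gene bodies. H3K9 and H4K20 trimethylation mark constitutive heterochromatin, and H3K27 trimethylation is laid down by the Polycomb complex PRC2 at silent genes. SET-domain enzymes write these marks with S-adenosylmethionine as the donor, with DOT1L as the writer without a SET domain, and 2 classes of enzymes erase them, the flavin-dependent LSD enzymes and the JmjC enzymes that need iron and alpha-ketoglutarate. A fully grown oocyte is nearly silent in transcription. Its mRNA changes during maturation mainly by degradation and by lengthening or shortening of poly(A) tails, and the stored mRNA of chromatin enzymes serves the egg and the early embryo.

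Of the 41 genes, 35 (22 writers and 13 erasers) reached 1 FPKM in at least 1 library and were compared with the 10898 genes of the table that did so. The remaining 6 stayed under 1 FPKM in every library. They were the H3K4 writers *Kmt2a* (0.15 to 0.29 FPKM) and *Setd7*, the H4K20 trimethylase *Kmt5c* (0.342 to 0.665 FPKM), the H3K4 erasers *Kdm5a* and *Kdm5b*, and the H3K9/H3K36 eraser *Kdm4c*. *Setd7* was listed at 0 in GV and MII.

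Among the writers, *Ezh2*, the catalytic subunit of PRC2, had by far the highest level, with 286 FPKM in GV oocytes and 387 in MII oocytes, and 381 and 516 after TubA-10 and TubA-20. Its share of the summed FPKM of all 25 writers was 45.7% (GV), 40.3% (MII), 44.6% (TubA-10) and 45.8% (TubA-20). In each library it ranked above at least 96.0% of the genes tested. *Kmt2c*, which methylates H3K4 at enhancers, followed with 41.3 (GV), 99.6 (MII), 70.0 (TubA-10) and 104 FPKM (TubA-20). *Suv39h2*, a trimethylase of H3K9, was the third by mean level, with 51.4 FPKM in GV and 78.1 in MII, with 67.4 at TubA-10 and 78.0 at TubA-20. In all 3 of them GV had the lowest level.

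The erasers were more evenly spread, and the gene with the highest level changed between libraries. It was *Kdm2b*, an H3K36 demethylase that also brings variant Polycomb complexes to CpG islands, in GV, *Kdm6b* in MII and TubA-20, and *Kdm1a* in TubA-10. *Kdm6b*, an H3K27 demethylase, had 40.7 FPKM in GV oocytes and 83.2 in MII oocytes, and 60.0 and 116 after TubA-10 and TubA-20. *Kdm1a*, the H3K4 demethylase LSD1, had 39.9 (GV), 68.7 (MII), 65.7 (TubA-10) and 92.2 FPKM (TubA-20). *Kdm6a*, the X-linked H3K27 demethylase, had 26.4 FPKM in GV and 55.7 in MII, with 50.8 at TubA-10 and 71.8 at TubA-20. These 3 erasers share 1 order, lowest in GV, then TubA-10, then MII, and highest in TubA-20.

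**Figure D1:**
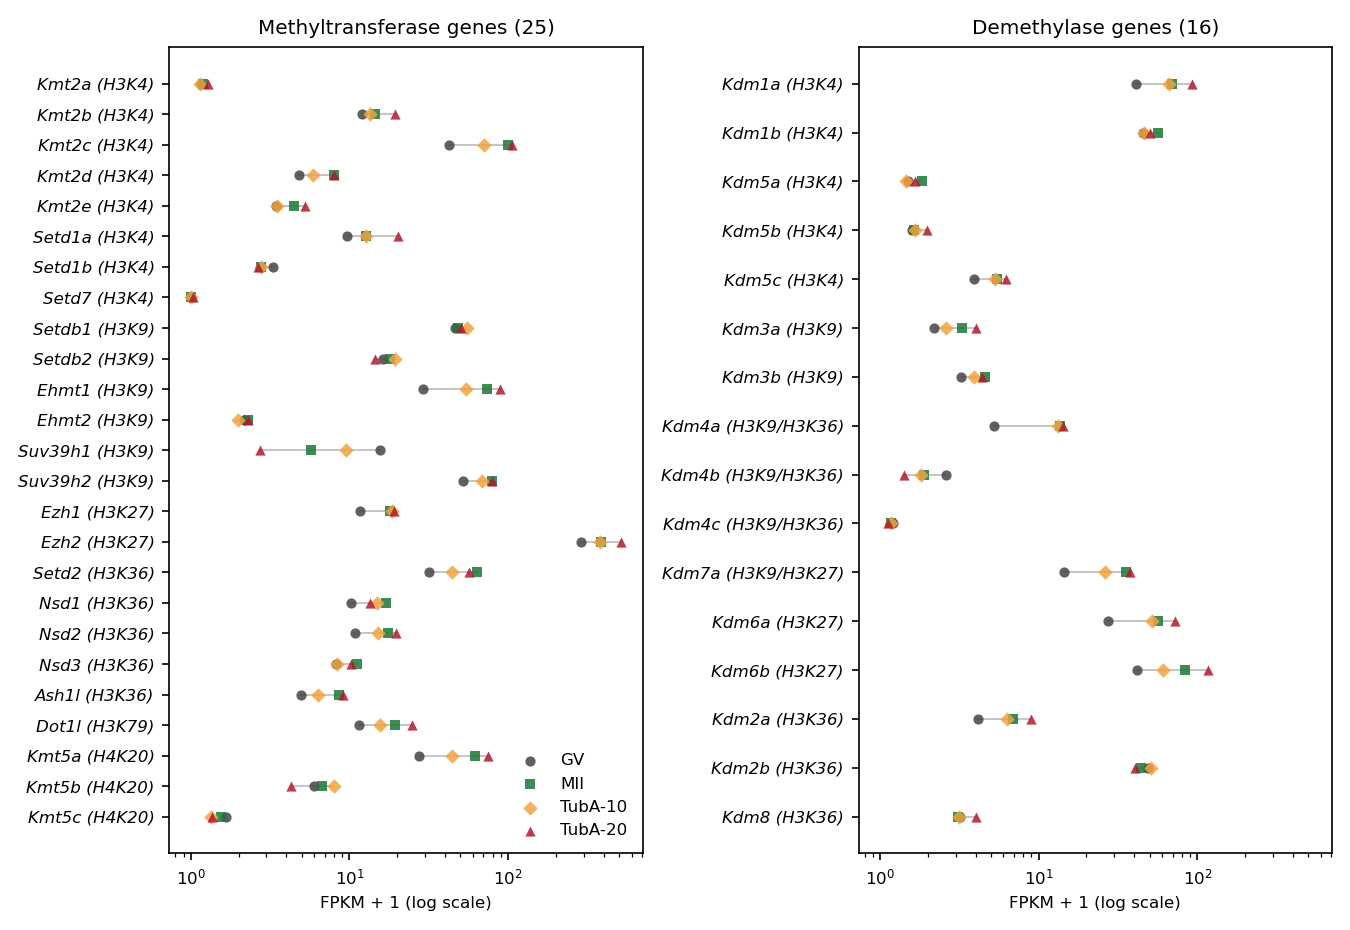
FPKM + 1 on a log axis for the 25 writers (left) and 16 erasers (right), with the target lysine beside each name and 1 point for each of the 4 libraries, GV, MII, TubA-10 and TubA-20. *Ezh2* stands highest in all 4, and *Suv39h1* has the widest spread, from 14.5 FPKM in GV to 1.73 in TubA-20.

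The first comparison asked how these mRNAs differed between GV and MII oocytes. The shift was toward higher levels in MII. Each change is a log2 ratio after adding 1 to both FPKM values, and a gene counts as higher or lower beyond a ratio of 2-fold. Of the 35 genes, 8 (22.9%) were higher in MII, against 6.14% of all genes tested, and 1 (2.86%) was lower, against 16.8%. Levels were above those of GV in 30 genes (85.7%) and below in 5, while 51.5% of all genes were above. The median log2 change was 0.58, against 0.04 over all genes tested, whose middle range, from the 25th to the 75th percentile, was −0.66 to 0.57. Writers and erasers shared this shift, with medians of 0.52 and 0.58. Of the writers 4 of 22 were higher and 1 was lower, and of the erasers 4 of 13 were higher and none was lower. The scaling of the libraries moved these shares. With equal *Gapdh* 13.7% of all genes were higher and 13.1% lower in MII, with the median ratio to GV of genes at 1 FPKM or more in all 4 libraries set to 1 (a median log2 change of 0) the shares were 3.06% and 19.2%, and the 35 genes then gave 8 and 5 higher.

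The 8 higher genes act on H3K4, H3K9, H3K27, H3K36 and H4K20. *Kdm4a*, which demethylates H3K9 and H3K36, had the largest ratio, from 4.22 FPKM in GV to 12.7 in MII, a log2 change of 1.39. With 12.2 FPKM at TubA-10 and 13.2 at TubA-20, its 3 cultured libraries were nearly level and all above GV. *Ehmt1* (GLP), which writes H3K9 mono- and dimethylation, had 28.1 FPKM in GV and 73.1 in MII, a log2 change of 1.35, with 53.2 in TubA-10 and 88.1 in TubA-20. *Kdm7a*, a demethylase of H3K9 and H3K27 that binds H3K4 trimethylation, had 13.5 FPKM in GV oocytes and 34.5 in MII oocytes, and 25.2 and 36.7 after TubA-10 and TubA-20. For *Ehmt1* and *Kdm7a* TubA-10 lay between GV and MII.

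*Kmt5a*, the H4K20 monomethylase of mitotic chromatin, had 26.3 (GV), 60.6 (MII), 43.1 (TubA-10) and 73.8 FPKM (TubA-20). *Setd2*, the trimethylase of H3K36, had 30.7 FPKM in GV and 62.8 in MII, with 43.4 at TubA-10 and 55.4 at TubA-20. *Setd2* was higher in MII than in TubA-20, unlike the other 7 as deposited, but *Kmt2c* and *Kdm4a* were below MII in TubA-20 under all 4 scalings tried and *Kdm7a* under 3 of them. The log2 changes from GV to MII were 1.25 for *Kmt2c*, 1.18 for *Kmt5a*, 1.05 for *Kdm6a*, 1.01 for *Kdm6b* and 1.01 for *Setd2*. The last 3 lie just past the threshold and drop under it when that median change is set to 0, to 0.91, 0.87 and 0.87.

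*Suv39h1*, the X-linked trimethylase of H3K9 in pericentromeric heterochromatin, was the only one of the 35 genes that was lower in MII. It had 14.5 FPKM in GV oocytes and 4.76 in MII oocytes, and 8.46 and 1.73 after TubA-10 and TubA-20. The level was highest before culture and lowest at TubA-20, and TubA-10 lay between GV and MII. The log2 change from GV to MII was −1.43, and it ranged from −1.61 to −1.23 over the settings tried. Its rank among the genes tested went from the 56.9th percentile in GV to the 35.0th in MII and the 19.0th in TubA-20. *Suv39h2*, which writes the same mark, was at the 80.6th percentile in GV and the 86.7th in MII.

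The annotated 3′ ends of the transcripts whose levels are described above were read from the reference, because oocytes regulate stored mRNA through elements near the poly(A) signal. Shown are *Suv39h1* and its relative *Suv39h2*, 4 of the higher genes with a signal, and *Ezh2* and *Kdm1a*. Each stretch has 30 bases, 5′ to 3′ on the transcript strand, from transcripts of GENCODE M21 on GRCm38. Capitals mark the poly(A) signal letters AATAAA or ATTAAA and the cytoplasmic polyadenylation element (CPE) letters TTTTAT or TTTTAAT, which can overlap one another.
Suv39h1: actacctgaagaAATAAAtacaatggaagt
Suv39h2: ctttttTTTTAATaacagAATAAAcaccat
Ehmt1: caaagtttcactAATAAAaaccgtgctgga
Setd2: tTTTTATgtaaaaAATAAAatcaATTAAAg
Kmt5a: taaagcaaaaaaATTAAAatatttattgcc
Kdm6b: aatattATTAAAAATAAAagcaggaaaaaa
Ezh2: tatttaataaccAATAAAcatactggcata
Kdm1a: gagAATAAAactttaaaataaTTTTATatg
These lie in the 3′ UTR at chrX:8061180-8061209 (minus strand) for *Suv39h1*, chr2:3455824-3455853 (minus) for *Suv39h2*, chr2:24789932-24789961 (minus) for *Ehmt1* and chr9:110618576-110618605 (plus) for *Setd2*. The others lie at chr5:124462268-124462297 (plus) for *Kmt5a*, chr11:69398514-69398543 (minus) for *Kdm6b*, chr6:47530152-47530181 (minus) for *Ezh2* and chr4:136550548-136550577 (minus) for *Kdm1a*.

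In *Suv39h2* the CPE letters begin 12 bases before the signal, and the 3′ UTR of 2808 bases holds 8 of them. The 3′ UTR of *Suv39h1* has 1679 bases and holds none. The stretch of *Setd2* also holds CPE letters upstream of its signal, and *Kdm1a* has them on both sides, within the stretch after the signal and, outside it, 17 bases before the signal. Searched on the sense strand, CPE letters were found anywhere in the 3′ UTR in 30 of the 33 expressed members with at least 100 annotated bases (90.9%), against 62.3% of 10126 genes. The 3′ UTRs of the 35 expressed members were also longer, with a median of 1318 bases against 891.5 over all genes tested. In the last 100 bases they were found in 13 (39.4%), against 20.2%, and AATAAA or ATTAAA in 23 (69.7%), against 81.5%. Over all genes, the median log2 change from GV to MII was 0.30 with CPE letters in the 3′ UTR and −0.40 without, but those with the letters also had longer 3′ UTRs (medians of 1542 and 435 bases). Among these 33 members the medians were 0.59 with the letters and −0.47 for the 3 without, *Ehmt2*, *Suv39h1* and *Kdm4b*. *Kmt2c* and *Kdm4a*, with annotated 3′ UTRs of 57 and 79 bases, were left out of this split. They hold no CPE letters either, and their log2 changes were 1.25 and 1.39. By the last 100 bases alone the members had the other order. Their median was 0.43 for the 13 with CPE letters there and 0.60 for the 20 without. Of the 13, 2 were higher, against 9.86% higher and 8.30% lower of all genes with the letters there. Of the 20, 4 were higher and 1 lower, against 5.40% and 16.9% of all genes without. The medians over all genes were 0.40 with the letters there and −0.03 without. The part of these letters in the differences was not tested, and the annotated end need not be the one used in oocytes.

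**Figure D2:**
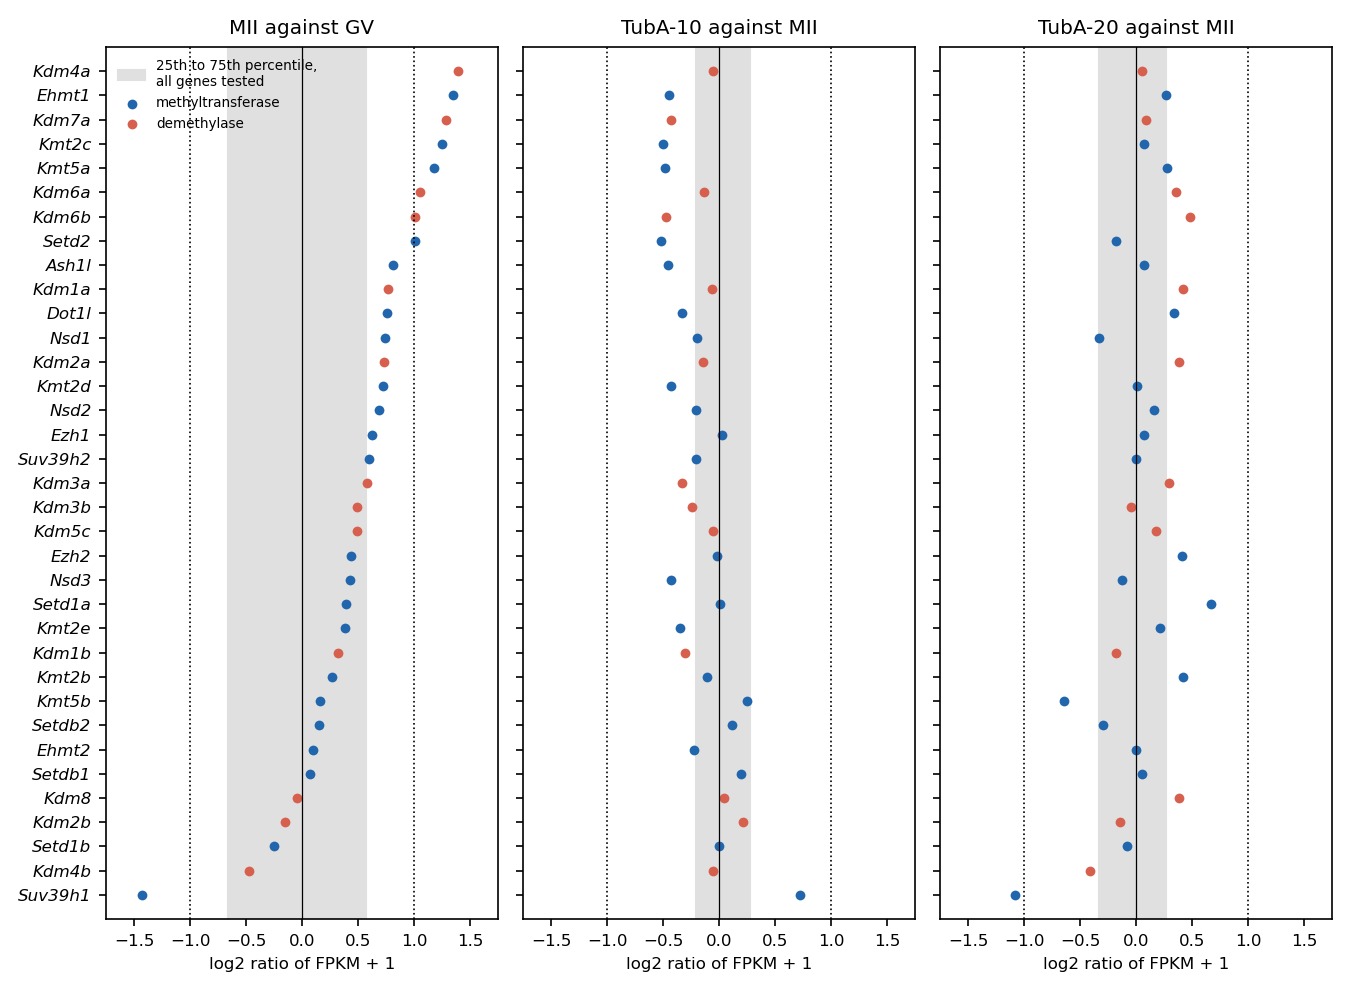
Log2 changes of FPKM + 1 for the 35 expressed writers and erasers, sorted by the change from GV to MII, for MII against GV, TubA-10 against MII and TubA-20 against MII. The shaded band spans the 25th to 75th percentile of all genes tested and dotted lines mark 2-fold, past which lie 9 genes for MII against GV, none for TubA-10 against MII and *Suv39h1* for TubA-20 against MII.

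The writers of each lysine can be described by their summed levels, in which a gene with a high level weighs most. H3K4 writers summed to 69.8 FPKM in GV and 137 in MII, of which *Kmt2c* gave the larger part. Its relative *Kmt2d*, the other enhancer H3K4 methylase, ranged from 3.82 to 7.01 FPKM, so that *Kmt2c* stood 10.8 times above it in GV and 14.3 times in MII. *Kmt2b*, which methylates H3K4 in growing oocytes, ranged from 11.1 to 18.5 FPKM. It stood 71.6 times above *Kmt2a* in GV, where *Kmt2a* had only 0.154 FPKM, or about 40 fragments, so this ratio is rough. Of the SET1 enzymes, which write most promoter H3K4 trimethylation, *Setd1a* exceeded *Setd1b* 3.77 times in GV, 6.55 times in MII, 6.61 times in TubA-10 and 11.7 times in TubA-20. *Setd1a* shares 3527 identical bases with the readthrough gene *Gm49388*, and *Kmt2d* shares 455 bases with the pseudogene *Gm47184*, so the levels of these 2 are uncertain. *Kmt2e*, which has a SET domain but no known histone methylase activity, ranged from 2.46 to 4.21 FPKM.

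The H3K9 writers summed to 155 FPKM in GV and 222 in MII. *Setdb1*, which silences retroelements with TRIM28, was close to level, from 45.1 to 54.5 FPKM, and *Setdb2* ranged from 13.5 to 18.5 FPKM. *Ehmt2* (G9a), which works as a dimer with the product of *Ehmt1*, was near 1 FPKM in every library, from 0.988 to 1.31. *Ehmt1* stood 24.4 times above *Ehmt2* in GV and 55.8 times in MII. *Suv39h2* stood 3.53 times above *Suv39h1* in GV, 16.4 times in MII, 7.96 times in TubA-10 and 45.2 times in TubA-20. Of the 12 pairs of related genes compared, this ratio moved most between libraries.

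For H3K27, *Ezh2* exceeded *Ezh1* 26.7 times in GV and 22.6 times in MII, and *Ezh1* ranged from 10.7 to 18.0 FPKM. The H3K36 writers summed to 60.9 FPKM in GV and 113 in MII. Beside *Setd2* they were the dimethylases *Nsd1* (9.21 to 16.1 FPKM), *Nsd2* (9.83 to 18.5), *Nsd3* (7.27 to 10.2) and *Ash1l* (3.94 to 8.07), each lowest in GV as deposited. *Dot1l*, the H3K79 methylase, ranged from 10.5 FPKM in GV to 23.8 in TubA-20. Of the H4K20 enzymes that follow *Kmt5a*, *Kmt5b* ranged from 3.27 FPKM in TubA-20 to 6.95 in TubA-10.

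The erasers of H3K4 summed to 88.3 FPKM in GV and 130 in MII. *Kdm1b* (LSD2), which removes H3K4 methylation in oocytes so that imprints can be set, ranged from 44.4 to 55.7 FPKM. The ratio of *Kdm1a* to *Kdm1b* was 0.897 (GV), 1.23 (MII), 1.46 (TubA-10) and 1.87 (TubA-20), so that *Kdm1a* was the lower of the pair in GV and the higher after culture. *Kdm5c*, an X-linked demethylase of H3K4, ranged from 2.91 to 5.24 FPKM. The H3K9 erasers *Kdm3a* and *Kdm3b* stayed low, from 1.20 to 3.59 FPKM, both lowest in GV.

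The H3K27 erasers *Kdm6a* and *Kdm6b* summed to 67.1 FPKM in GV and 139 in MII. The H3K36 erasers *Kdm2a*, *Kdm2b* and *Kdm8* summed to 53.4 FPKM in GV and 51.2 in MII. That sum leaves out *Kdm4a*, *Kdm4b* and *Kdm4c*, which are grouped under both H3K9 and H3K36. The *Kdm4* genes named summed to 6.04 FPKM in GV and 13.7 in MII, mostly from *Kdm4a*. *Kdm2b* ranged from 39.2 FPKM in TubA-20 to 50.0 in TubA-10, and its relative *Kdm2a* from 3.17 in GV to 7.98 in TubA-20. *Kdm2b* exceeded *Kdm2a* 15.1 times in GV, 7.30 times in MII, 9.43 times in TubA-10 and 4.91 times in TubA-20. *Kdm2b* shares 615 identical bases with the pseudogene *Gm12397*, so its level is uncertain. *Kdm8*, a JmjC enzyme, ranged from 2.08 to 3.01 FPKM, and *Kdm4b*, of H3K9 and H3K36, from 0.418 FPKM in TubA-20 to 1.60 in GV.

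**Figure D3:**
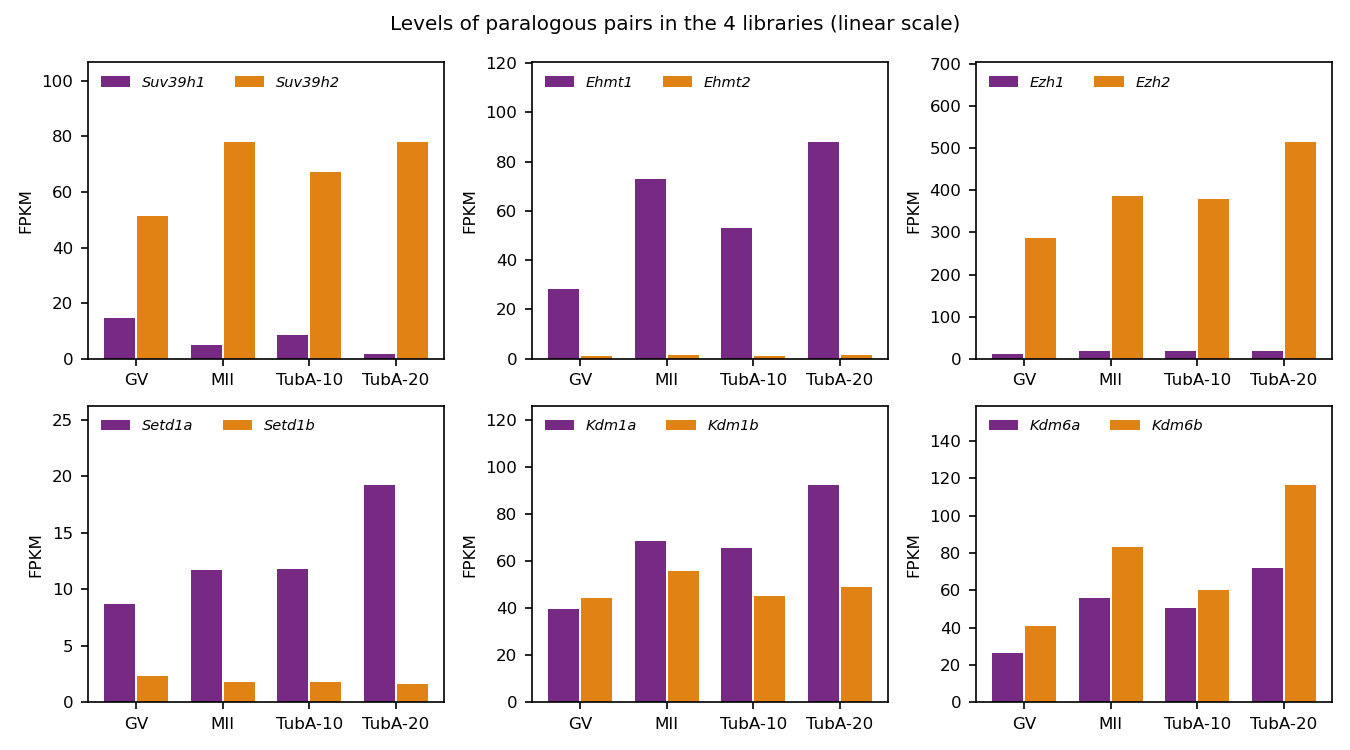
FPKM (bars, linear scale) of 6 pairs of related writers or erasers in the 4 libraries, with 1 panel for each pair. The *Suv39h1* bar is highest in GV (14.5 FPKM) and lowest in TubA-20 (1.73 FPKM) beside the higher *Suv39h2*, and *Kdm1a* is below *Kdm1b* in GV and above it in the cultured libraries.

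The second comparison set TubA-10 against MII, both after 12 h of culture. No member was past 2-fold in either direction, against 1.04% of all genes higher and 0.257% lower. The ratio was within 1.5-fold in 34 of 35 genes (97.1%), against 90.4% of all genes tested. The exception was *Suv39h1*, at a log2 change of 0.72. Levels were below MII in 27 genes and above in 8 (22.9%), while 51.3% of all genes were above. The median was −0.20, against 0.01 over all genes. Under the 4 other scalings it lay between −0.25 and −0.16, against −0.03 to 0.04 over all genes. As deposited, the lowest log2 change was −0.52, of *Setd2*, followed by −0.50 of *Kmt2c*, −0.48 of *Kmt5a* and −0.47 of *Kdm6b*, all short of 1.5-fold. Writers summed to 853 FPKM in TubA-10 against 962 in MII, and erasers to 327 against 375.

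In TubA-10 most members, like most genes tested, stood between the GV and MII levels. This held for 26 of the 35 (74.3%), a share near the 64.5% of all genes tested. Under the 4 other scalings it held for 25 to 27 members (71.4% to 77.1%), against 61.3% to 64.9% of all genes. Against GV, 1 gene, *Kdm4a*, was higher in TubA-10 (log2 change of 1.34) and none was lower, while 1.50% of all genes were higher and 11.3% lower. With equal *Gapdh*, 5 members (14.3%) and 6.62% of all genes were higher. The median change of the members against GV was 0.40 for TubA-10 and 0.58 for MII. The comparisons share the GV library, so their values are given side by side only.

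The third comparison set TubA-20 against MII. Most members differed little, with levels above MII in 22 genes (62.9%) and below in 13, while 49.8% of all genes were above. Under the 4 other scalings 15 or 16 members (42.9% to 45.7%) were above MII, against 37.2% to 43.4% of all genes. *Suv39h1* was lower, with 1.73 FPKM in TubA-20 and 4.76 in MII, a log2 change of −1.08, and none was higher. Of all genes, 4.92% were lower and 0.661% higher. The ratio was within 1.5-fold in 32 of 35 genes (91.4%), against 79.6% of all genes. The 2 others outside it were *Setd1a* at 0.67, whose level is uncertain, and *Kmt5b* at −0.64. The median was 0.07, against −0.00 over all genes, and it came out between −0.08 and −0.01 under the 4 other scalings. *Suv39h1* was thus above MII at TubA-10 and below it at TubA-20, with about 580 fragments behind its value in TubA-10, 310 in MII and 76 in TubA-20. Of *Suv39h2*, the TubA-20 level of 78.0 FPKM and the MII level of 78.1 were the same to within 1%.

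Of the 12 oocyte marker genes, the level at TubA-20 was past 2-fold below MII in 4, against 4.92% of all genes. These were *Zp2*, *Zp3*, *Figla* and *Padi6*, at log2 changes of −1.14 to −1.68. Of the 12, 8 were below MII and 4 above, with a median of −0.46. Those above were *Oosp1* (0.82), *Mos* (0.52), *Gdf9* (0.38) and *Dppa3* (0.21). The part of the marker genes in the lower level of *Suv39h1* was not tested.

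Although few members passed 2-fold against MII, TubA-20 was often the highest library among them. It was the highest of 4 in 21 of 35 genes (60.0%), against 37.5% of all genes, and the lowest in 6 (17.1%), against 36.5%. Those 6 were *Suv39h1*, *Setd1b*, *Setdb2*, *Kmt5b*, *Kdm4b* and *Kdm2b*. GV was the lowest library in 27 genes (77.1%), against 44.0%. The full order of GV, TubA-10, MII and TubA-20 from low to high was found in 18 genes (51.4%), against 24.3% of all genes, among them *Ezh2*, *Kmt2c*, *Ehmt1*, *Kmt5a*, *Kdm1a*, *Kdm6a* and *Kdm6b*. These orders count differences of any size and depend on the scaling. Under the 4 scalings, tried here after the data were seen, TubA-20 was the highest in 15 or 16 members (42.9% to 45.7%), against 27.5% to 31.4% of all genes. The full order was then found in 12 to 14 members (34.3% to 40.0%), against 18.0% to 20.7%, without *Kmt2c* in any scaling and without *Ezh2* at equal *Gapdh*. GV was the lowest in 23 to 29 members (65.7% to 82.9%), against 37.6% to 49.9% of all genes.

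Against GV, TubA-20 had 11 members higher (31.4%), against 15.3% of all genes, and 1 lower (2.86%), against 23.6%. The 11 were the 7 genes other than *Setd2* that were also higher in MII, together with *Setd1a* (log2 change of 1.06, from an uncertain level), *Dot1l* (1.10), *Kdm1a* (1.19) and *Kdm2a* (1.11). With the median change of genes at 1 FPKM or more in all 4 libraries set to 0, these last 4 were short of 2-fold and 7 members were higher (20.0%), against 7.94% of all genes. The lower gene was *Suv39h1*, at −2.51. The summed level of the writers was 1.54 times that of GV in MII and 1.80 times in TubA-20, and that of the erasers 1.62 and 1.91 times. By lysine, the summed level of the H3K27 erasers *Kdm6a* and *Kdm6b* was 2.80 times that of GV in TubA-20. That of the H3K36 erasers *Kdm2a*, *Kdm2b* and *Kdm8* was 0.941 times. That of *Kdm4a*, *Kdm4b* and *Kdm4c*, grouped under both H3K9 and H3K36, was 2.27 times, mostly from *Kdm4a*. The H3K36 sum rests mainly on *Kdm2b*, whose level is uncertain, while *Kdm2a* and *Kdm8* had log2 changes of 1.11 and 0.34.

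Transcript length moved with these differences and sets the members apart from most genes. The annotated main transcripts of the 35 members had a median of 5953 bases, and 77.1% reached 4 kb, against a median of 2829 bases and 29.7% over all genes tested. From GV to MII the median log2 change over all genes was −0.48 under 2 kb, 0.05 between 2 and 4 kb and 0.39 from 4 kb. No member lay under 2 kb. The 8 members between 2 and 4 kb had a median of 0.30, and the 27 from 4 kb had 0.60, beside the 0.39 of all genes of that length. Of those 27, 6 were higher and none lower, while 11.6% of all genes of that length were higher and 5.51% lower. *Suv39h1* (3116 bases) was the 1 of the 8 members between 2 and 4 kb that was lower, and 2 of the 8, *Kdm4a* and *Kmt5a*, were higher. Of all genes of that length 13.0% were lower and 4.85% higher.

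The other comparisons moved with length in opposite directions. Across all genes the Spearman coefficient of the log2 change with log2 length was 0.39 for MII against GV, −0.35 for TubA-10 against MII and 0.11 for TubA-20 against MII (10890 genes). Across the 35 members it was 0.29, −0.53 and −0.00. Genes within a library are not independent replicates, and these coefficients are descriptions that share the MII library. In TubA-10 against MII the 27 long members had a median of −0.22, beside −0.13 for all genes from 4 kb, and the other 8 had 0.01, beside 0.02 for all genes between 2 and 4 kb. The part of transcript length in the differences of the members was not tested.

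**Figure D4:**
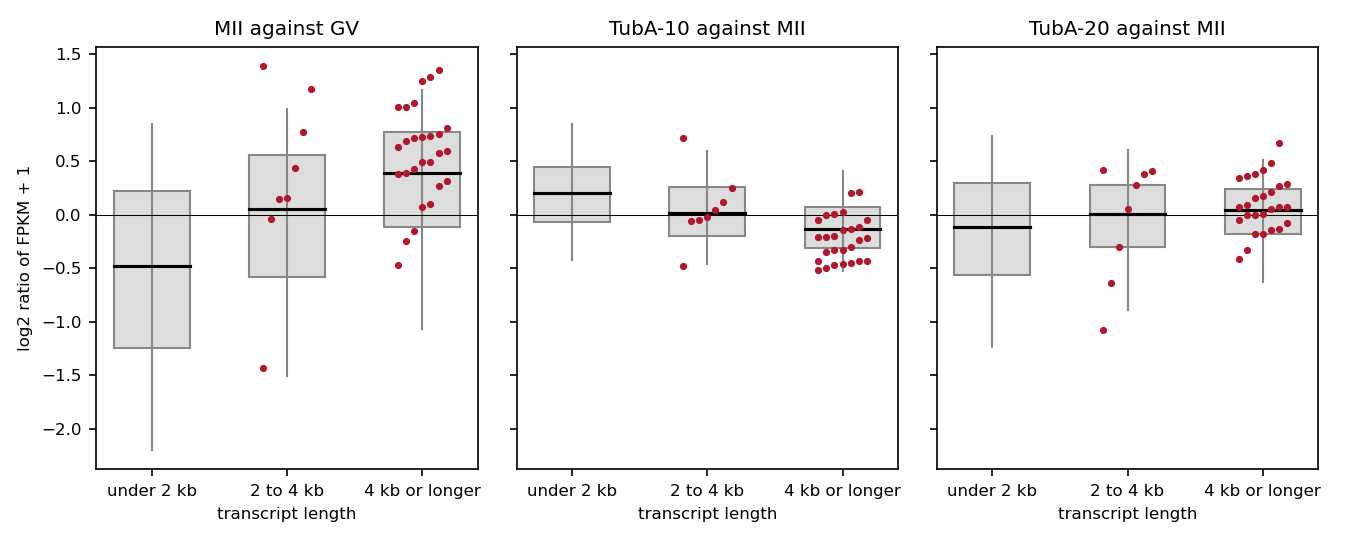
Log2 change of FPKM + 1 by annotated transcript length, for all genes tested (line, median; box, 25th to 75th percentile; whiskers, 5th to 95th percentile) and for the 35 writers and erasers (points), in MII against GV, TubA-10 against MII and TubA-20 against MII. From GV to MII the median over all genes goes from −0.48 under 2 kb to 0.39 from 4 kb, and most of the 35 points lie in the longest class.

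The partners and relatives of these enzymes were taken as 82 further genes in 8 lists. Their counts in MII against GV stand beside the 6.14% of all genes higher and 16.8% lower, and lists this short hold few calls at such shares. Of the 13 partners of H3K4 methylases, 1 was higher in MII than in GV, *Psip1*, and 1 lower, *Pagr1a*, at log2 changes of 1.15 and −1.68, with a median of 0.54. Both have near-identical copies in the genome and are uncertain. *Men1*, the menin of KMT2A and KMT2B complexes, had 16.7 (GV), 8.41 (MII), 11.0 (TubA-10) and 3.77 FPKM (TubA-20). The 9 PRC2 partners had a median of 0.71, with 2 higher, *Aebp2* at 1.29 and *Mtf2* at 1.21, both accessory subunits of PRC2, and none lower. The 7 partners of LSD1 and LSD2 had a median of 0.75, the 8 H3K9 partners and readers 0.60 and the 5 expressed further demethylase genes 0.58, with none past 2-fold in these 3 lists. Of the 2 expressed DOT1L partners, *Mllt10* was higher, at 1.19.

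The further lysine methyltransferase genes, several of which act on proteins other than histones, had a median of −0.31 over the 17 expressed, with 1 higher and 3 lower, shares near those of all genes (6.14% and 16.8%). *Setd4*, a SET-domain methyltransferase, had 893 FPKM in GV and 127 in MII, with 160 at TubA-10 and 59.5 at TubA-20, log2 changes of −2.80 for MII against GV and −1.09 for TubA-20 against MII. Its GV level was above that of every writer among the 41, *Ezh2* included. *Prdm2*, an H3K9 methyltransferase, was the higher gene, at a log2 change of 1.22. Of the 7 expressed genes of methyl donor and alpha-ketoglutarate metabolism, 1 was higher in MII, *Mat2b*, the regulatory subunit of methionine adenosyltransferase, with 520 FPKM in GV oocytes and 1072 in MII oocytes, and 921 and 1473 after TubA-10 and TubA-20. No gene of these 8 lists was past 2-fold in TubA-10 against MII, and in TubA-20 against MII *Setd4* alone was. Among all genes tested, 1.04% stood more than 2-fold above MII after TubA-10, while 0.257% stood that far below it. The matching shares for TubA-20 were 0.661% above MII and 4.92% below it.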

How the data were processed

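RNA from pools of oocytes was made into stranded, poly(A)-selected libraries. The labels and the methods of the study differ on the extraction reagent, and the study writes of single oocytes in places. The authors deposited 1 table of FPKM values, made with Cufflinks on a strand-specific setting against mm10, and the submitters' processing notes also name STAR 2.5.0 and Cuffdiff 2.2.1. Length and library size are thus taken into account in the deposited FPKM. By the study's methods, the other Cufflinks options were left at their defaults. How reads in near-identical copies were shared is not described beyond that in the sources used here.

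Of the 21959 entries, which carry Ensembl identifiers while the study names a UCSC gene model, 21794 were given a symbol from GENCODE M21 (GRCm38), and entries sharing a symbol were added up. Log2 ratios of FPKM + 1 and counts past 2-fold were computed for genes with at least 1 FPKM in 1 library. Such ratios understate the change of genes with low values. FPKM hold no read counts, so the fragments per library were estimated: in genes with 1 annotated transcript longer than 1 kb and under 0.15 FPKM, the 10th percentile of FPKM times length was taken as 1 fragment. Fragments given for a gene are therefore approximate, and no interval was computed from them. The read totals that the study gives for each library were not used in this estimate. They are higher than it in every library, also when counted as read pairs.

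Length and 3′ UTRs are those of the principal annotated transcript. Copies were sought with blastn 2.17.0, at 95% identity over 300 bases or more. Scripts were tested on simulated data. The software was Python 3.11.15, with pandas 2.3.3, numpy 2.4.6, matplotlib 3.10.9 and scipy 1.17.1. The members, the partner lists and the marker lists were chosen with earlier results of these data known. Alternatives were pseudocounts of 0.1 and 0.01, no minimum or 5 FPKM, 4 scalings, the highest entry per symbol and a 3-fold threshold. For the order of the libraries and for the comparisons of treated oocytes with GV, the 4 scalings were added after seeing the data. All 41 members could be named, with values in all 4 libraries for those past 2-fold in 1 of the 3 comparisons and for the 3 writers and 3 erasers of highest mean. Other members are given by their ranges. In a partner list, genes with at least 5 FPKM could be named if among the 2 largest rises or falls.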

Additional observations from a re-analysis of the deposited data

Results flagged for a closer look

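*Suv39h1* moved in opposite directions at the 2 doses of TubA. Against MII (4.76 FPKM), it was higher in TubA-10 (8.46 FPKM, a log2 change of 0.72) and lower in TubA-20 (1.73 FPKM, a log2 change of −1.08). With 1 library for each condition the difference was not tested. Of the 10898 genes tested, 294 (2.70%) were past 1.5-fold in opposite directions in this way, 285 of them higher in TubA-10 and lower in TubA-20. No other writer or eraser among the 35 was one of them.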

How the results depend on the processing

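No paired analysis was possible because each condition had 1 library, and for the same reason no replicate could be left out. For MII against GV, the median log2 change of the members (0.58) was 0.44 with no minimum level, 0.71 with a minimum of 5 FPKM, 0.45 with the median change of genes at 1 FPKM or more in all 4 libraries set to 0 and 0.72 with equal *Gapdh*. The number more than 2-fold higher (8) was 5 with the median change set to 0, when 3.06% of all genes were higher. Past 3-fold there were 0 higher and 0 lower, against 0.303% and 7.10% of all genes. For TubA-20 against MII, the number lower (1) was 2 with a pseudocount of 0.01, when *Kdm4b* was added at −1.06, and 0 past 3-fold. Of all genes tested, 4.92% were lower as deposited, 11.0% with that pseudocount and 0.560% past 3-fold. The median of the members (0.07) was −0.07 with equal FPKM sums, −0.05 with equal upper quartiles and −0.08 with equal *Gapdh*. The median over all genes tested, 0.04 for MII against GV, lay between −0.07 and 0.22 under the 4 scalings, and for TubA-20 against MII it went from −0.00 to values between −0.13 and −0.07. For TubA-10 against MII no setting took a member past 2-fold, while with a pseudocount of 0.01 3.27% of all genes were higher and 1.33% lower. *Suv39h1* was past 2-fold lower in TubA-20 than in MII, at −1.46 to −1.08, under each pseudocount, minimum and scaling tried. The 6 members under 1 FPKM rest on about 190 fragments or fewer in a library, and they enter these values only where no minimum was set.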
